A study of Mus musculus with 6 samples.

Results

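The 10 genes described here make, break down, carry and read retinoic acid. They are Rdh10, Aldh1a2 and Aldh1a3 of synthesis, Cyp26a1 and Cyp26b1 of breakdown, the binding protein genes Crabp1 and Crabp2, and the receptor genes Rara, Rarb and Rarg. They were taken by gene name from the arrays, where all 10 were found, among 19505 named genes, at 14 of 41174 probes. Of the 10 genes, 6 had 1 probe and 4 had 2 probes.

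Retinoic acid is made from vitamin A in 2 steps: retinol dehydrogenases such as RDH10 make retinal, and retinaldehyde dehydrogenases of the ALDH1A family make retinoic acid. CYP26 enzymes oxidise and so remove it, CRABP proteins bind it in the cytoplasm, and the nuclear receptors RARA, RARB and RARG switch genes when it binds. In the mouse limb, retinoic acid is known for its part in the regression of the tissue between the digits, and its removal is known to be needed for cartilage to form.

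The material was the autopod, the hand or foot plate of the limb, from C57BL/6 embryos at age E14.5. The mutant is labelled Tgfbr2Prx1KO, a name that by convention stands for deletion of Tgfbr2, which encodes a TGF-beta receptor, by a recombinase under the Prx1 promoter, active in limb mesenchyme and not in epidermis, and the controls are labelled wild type. The 6 groups, with 1 array each, were the interdigital tissue, the interzone (the cell band where a joint forms) and the growth plate chondrocytes of mutants, and the same 3 tissues of controls, all taken by laser capture from 2 mutant and 2 control littermates. The labels used here do not say which embryo or how many cells stood behind an array, and the captured material was amplified by a commercial PCR procedure before 250 ng of product was labelled. Each value below is a level, the log2 processed signal minus the 75th percentile of its array, so that 0 is that percentile, and each fold compares 1 array with 1 array without a replicate check. In captured tissue, fewer cells of a type and less RNA per cell cannot be told apart.

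The arrays were unequal. The share of spots well above background, the scanner software's mark of detection, was 87.0%, 77.3% and 81.8% in mutant interdigital tissue, interzone and growth plate, and 88.3%, 83.1% and 72.3% in the matching controls. All control arrays and the mutant interzone array lay on slide 1, and the mutant growth plate and interdigital arrays on slide 2, so that slide and genotype cannot be told apart in those pairs. Slide and tissue likewise cannot be told apart where the mutant interzone is set against another mutant tissue. The cartilage markers did not set the array labelled mutant growth plate apart: the median level of 20 cartilage genes was 0.65 there, 0.60 on the mutant interdigital array and 4.61 on the control growth plate array. Whether that array holds the tissue on its label cannot be settled from the files, which limits what each growth plate difference between mutant and control below stands for. Epidermis markers were high on the mutant arrays, with medians over 14 genes of 3.46, 3.14 and 3.56 in interdigital tissue, interzone and growth plate, against -1.60, -0.21 and 2.02 in the controls. Muscle and macrophage medians were 1.69 and 0.21 on the mutant interzone array and -1.23 and -2.44 on the control interzone array. The endothelium median was -0.27, -0.25 and -0.18 on the mutant arrays and 0.29, -1.95 and -3.30 on the control arrays, in the same order of tissues. The part of these cell types in the results below was not tested.

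**Figure D1:**
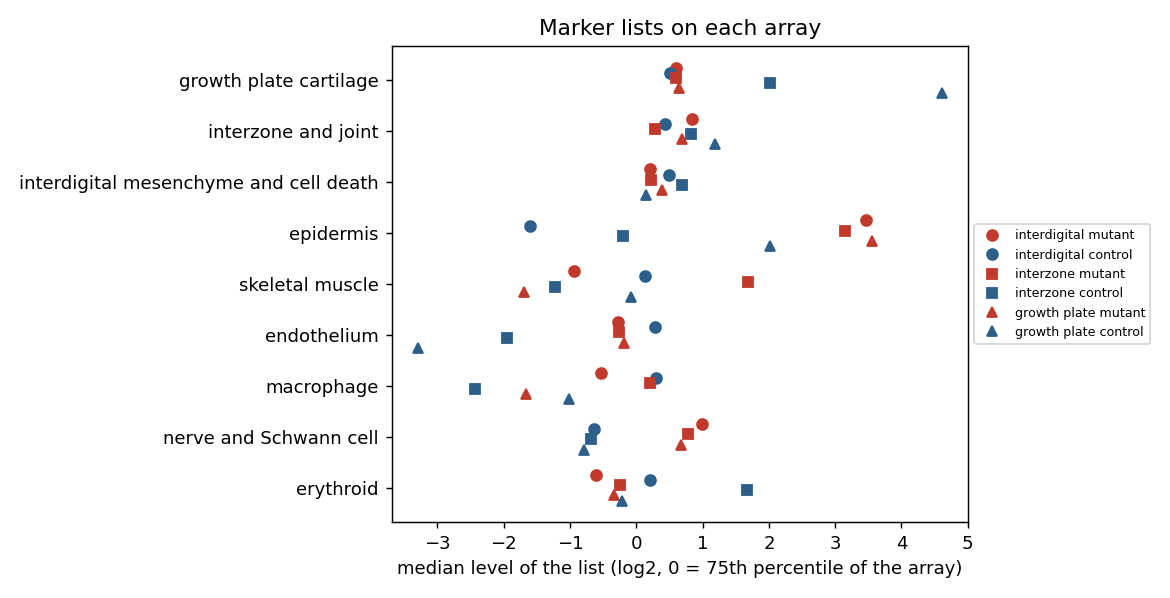
Median level of 9 marker lists (rows) on each of the 6 arrays; the horizontal axis is the log2 level with 0 at the 75th percentile of the array, red is mutant, blue is control, and the marker shape gives the tissue. The control growth plate array stands alone at 4.61 in cartilage genes, and the mutant arrays lie at 3.14 to 3.56 in epidermis genes, above the controls.

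The scatter of repeated spots gave the only error within an array. Over 176 probes spotted at least 8 times and detected everywhere, the median SD of a probe's spots was 0.071 to 0.098 on the log2 scale, and its 95th percentile reached 0.25. Differences between arrays under 0.35 are called within spot scatter here. That limit is this highest SD percentile carried over to a difference of 2 spots, so it is an SD for a noisy probe and not a 95% bound. This scatter holds no variation between embryos or captures.

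Most of the members were measurable. At the brightest probe of each gene, all 10 were well above background on each interdigital array, 9 on each interzone array and 8 on each growth plate array. The gene missing was Cyp26a1 on the mutant interzone array and Aldh1a3 on the control interzone array, so that 8 were detected on both. Cyp26a1 and Aldh1a3 were the genes not detected throughout.

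**Figure D2:**
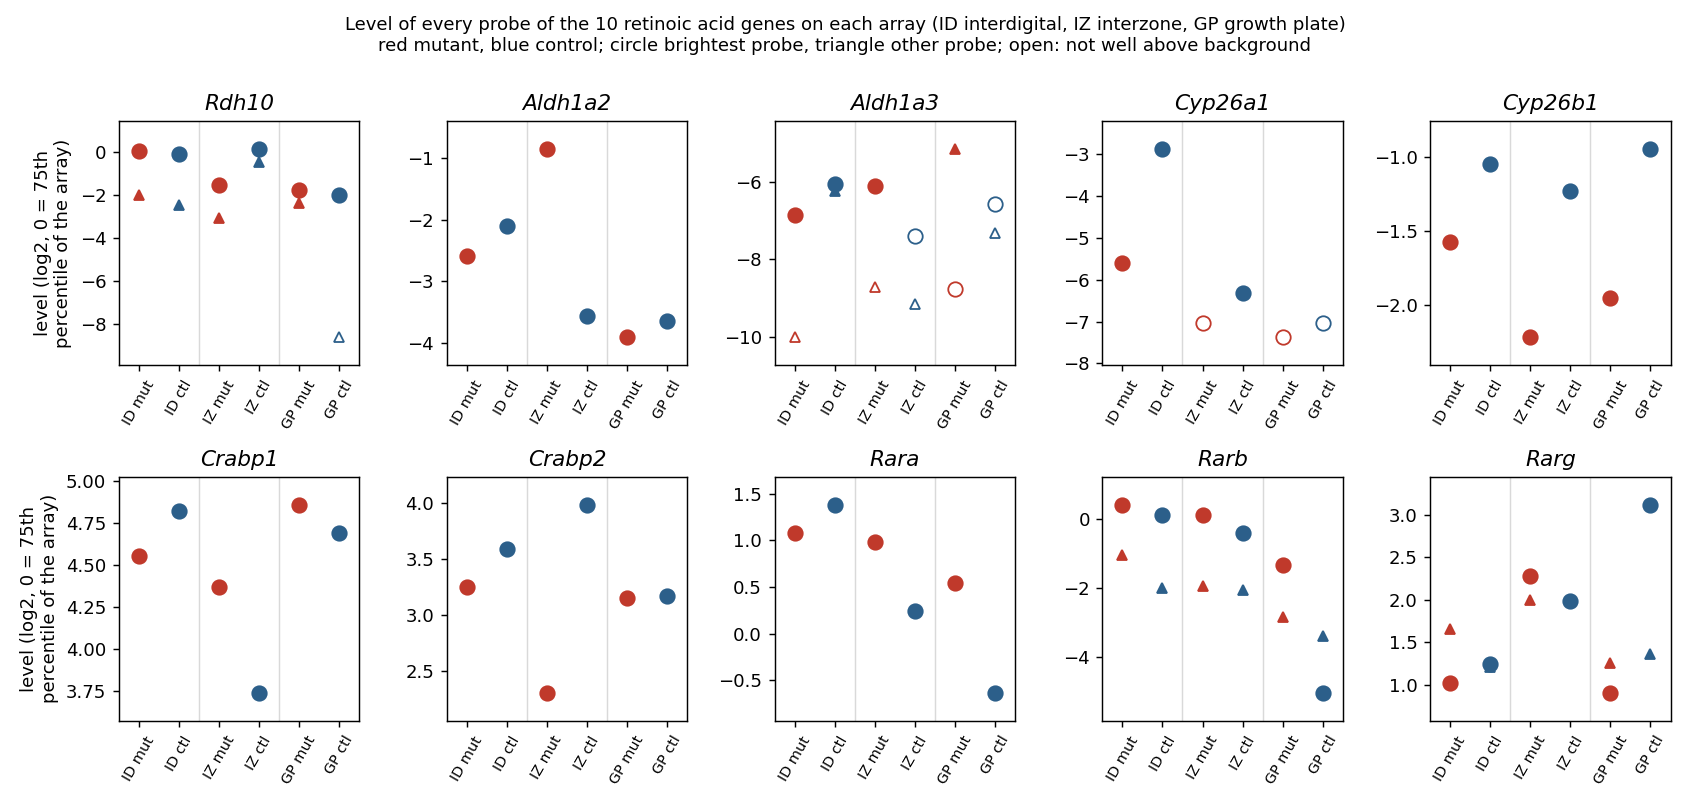
Level of each probe of the 10 genes (1 panel a gene) on the 6 arrays; the vertical axis is log2 with 0 at the 75th percentile of the array and differs between panels, circles are the brightest probe, triangles the other probe, and open symbols were not well above background. Cyp26a1 is highest on the control interdigital array at -2.89, Aldh1a2 on the mutant interzone array at -0.85, and Rarb is lowest on the control growth plate array at -5.05.

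At its brightest probe Rdh10, which catalyses the first oxidation of vitamin A in the embryo, was high in interdigital tissue and in the control interzone. It was low in growth plate and in the mutant interzone. Its brightest probe had a level of 0.05 in mutant and -0.07 in control interdigital tissue, -1.51 in mutant and 0.16 in control interzone, and -1.78 in mutant and -2.001 in control growth plate. The mutant interzone was thus 3.18-fold lower than its control, while the interdigital and growth plate pairs differed within spot scatter. The second probe was 6.14-fold lower in the mutant interzone, with levels of -3.08 in mutant and -0.46 in control interzone. In interdigital tissue it was at -2.01 in the mutant and -2.46 in the control, 1.36-fold higher. That probe was not well above background on the control growth plate array, where the mutant was at least 18.0-fold higher, against 1.17-fold at the brightest probe, so the probes disagree about growth plate. The sign of the small growth plate difference also turned with the scaling, from 0.22 here to -0.89 with the deposited value table. Within the controls, which share a slide, Rdh10 was 3.81-fold higher in interdigital tissue and 4.47-fold higher in interzone than in growth plate at the brightest probe. At that probe both folds were under 2 with the deposited value table. Control interdigital tissue was 1.17-fold below control interzone at that probe and 3.99-fold below it at the second. Mutant interdigital tissue, on a different slide, was 2.95-fold above mutant interzone at the brightest probe and 2.10-fold at the second. Within the mutants it was 3.56-fold higher in interdigital tissue than in growth plate at the brightest probe and 1.27-fold at the second, while interzone and growth plate differed within spot scatter at the brightest probe and interzone was 1.65-fold lower at the second.

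Aldh1a2, the main maker of retinoic acid in the early mouse embryo, stood out on the mutant interzone array. Its level was -0.85 in mutant and -3.57 in control interzone, a 6.58-fold difference on 1 slide. In interdigital tissue it was -2.59 in the mutant and -2.11 in the control, 1.40-fold lower, and in growth plate it was -3.91 in the mutant and -3.64 in the control, within spot scatter. That growth plate difference was -0.27 on the log2 scale, 0.11 with the percentile over probes detected on all arrays, -1.32 with quantile normalization and -1.38 with the deposited value table. In the controls Aldh1a2 was highest between the digits, 2.75-fold above interzone and 2.90-fold above growth plate. The fold above growth plate was under 2 with the deposited value table. In the mutants interdigital tissue was 2.49-fold above growth plate but 3.36-fold below interzone. The order of interdigital tissue and interzone thus turned with the genotype, but the mutant interzone lay on a different slide from the other mutant tissues. The mutant interzone array also had the higher epidermis, muscle, macrophage and endothelium medians given above than its control. Among the mutant arrays its epidermis and endothelium medians were near those of the others, and its muscle and macrophage medians were the highest. The part of these cell types in the Aldh1a2 level was not tested.

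Aldh1a3, another enzyme of the same step, was at the edge of detection. Its brightest probe was well above background on 3 of 6 arrays, at -6.86 in mutant and -6.07 in control interdigital tissue and -6.10 in mutant interzone. The other probe was well above background on 2 arrays, the mutant growth plate array at -5.15 and the control interdigital array at -6.24. No array had both probes detected other than the control interdigital one, and no pattern across tissues was shared by the probes.

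The profiles most like that of Aldh1a2 over the 6 arrays, by the smallest root mean square distance of centred levels among 15589 other genes detected throughout, were those of Lgals2 (0.19), Nat9 (0.28) and Gpihbp1 (0.32). Each of these was also highest on the mutant interzone array. With 6 points, of which 1 stands apart, this likeness is a description of these arrays.

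Cyp26a1, a retinoic acid hydroxylase whose own transcription is known to rise with retinoic acid, was highest between the digits in both genotypes. Its level was -5.61 in mutant and -2.89 in control interdigital tissue, -7.05 (not well above background) in mutant and -6.31 in control interzone, and -7.37 and -7.04, neither well above background, in mutant and control growth plate. The mutant interdigital array was 6.62-fold lower than its control, a log2 difference of -2.73 that was -1.88 with normexp. Within the controls, interdigital tissue was 10.7-fold above interzone and at least 12.5-fold above growth plate. Within the mutants it was at least 1.84-fold above interzone and at least 3.38-fold above growth plate. "At least" marks a bound, for which the dim array was given the probe's own signal or, if that was smaller, the weakest signal that counted as detected on that array. The mutant and control interdigital arrays lay on different slides.

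Cyp26b1, the family member known for clearing retinoic acid around mouse cartilage and in the distal limb, differed by under 2-fold between tissues of 1 genotype and was lower on each mutant array. Its level was -1.57 in mutant and -1.05 in control interdigital tissue (1.44-fold lower), -2.21 in mutant and -1.23 in control interzone (1.98-fold lower), and -1.95 in mutant and -0.94 in control growth plate (2.00-fold lower). All 3 mutant arrays lay below all 3 control arrays, although the mutant interdigital and control interzone arrays, -1.57 and -1.23, differed within spot scatter. The interzone and growth plate values fall just outside and just inside the 2-fold limit, so counting them apart has no meaning. With normexp background correction the interzone difference was -0.025 on the log2 scale, so that it was not seen under that setting, and the growth plate difference was -0.62 with the percentile over probes detected on all arrays, -0.76 with normexp and -2.12 with the deposited value table, so that its 2-fold call ended under the first pair of settings. The 3 profiles most like it were those of Ccdc7a (0.080), Surf4 (0.10) and Atg4c (0.14), by the same measure.

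The promoters of Cyp26a1 and Rarb are shown because these are textbook direct targets of the retinoic acid receptors. Both were also higher between the digits than in growth plate in each genotype. The windows are the 250 bases before the transcription start, from RefSeq's table for GRCm38.p6, 5′ to 3′ on the strand of the gene. Capitals mark a pair of receptor half-sites in the same direction with 5 bases between them, where a half-site is AGGTCA with A or G as the first base and G or T as the third, searched on both strands.
Rarb, chr14:16575477-16575726, minus strand: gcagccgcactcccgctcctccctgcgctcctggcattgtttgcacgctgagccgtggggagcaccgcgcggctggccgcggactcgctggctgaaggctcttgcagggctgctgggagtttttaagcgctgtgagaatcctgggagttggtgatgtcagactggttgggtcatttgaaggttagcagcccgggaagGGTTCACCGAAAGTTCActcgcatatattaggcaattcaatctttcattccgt
Cyp26a1, chr19:37697558-37697807, plus strand: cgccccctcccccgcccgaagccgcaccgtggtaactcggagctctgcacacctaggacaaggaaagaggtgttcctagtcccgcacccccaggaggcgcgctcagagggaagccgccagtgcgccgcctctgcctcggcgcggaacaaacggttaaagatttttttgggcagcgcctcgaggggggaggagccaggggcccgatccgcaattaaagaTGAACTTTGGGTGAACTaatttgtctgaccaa

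In Rarb the repeat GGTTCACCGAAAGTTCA runs from 53 to 37 bases before the start on the gene's strand. In Cyp26a1 the repeat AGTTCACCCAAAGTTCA lies on the opposite strand, from 32 to 16 bases before the start. Such a repeat was in 29 of 32851 promoter windows of this length (0.0883%) and in 2 of the 11 windows that the table holds for 7 of the members. Repeats with 2 bases or 1 base between the half-sites were in 57 and 54 of all windows and in 0 of the 11, which says only that these letters are not in these windows. A match describes the sequence and is not a measured site.

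Crabp1, which binds retinoic acid in the cytoplasm and is linked to its turnover, varied least of the 10 genes. Its level was 4.55 in mutant and 4.82 in control interdigital tissue, 4.37 in mutant and 3.74 in control interzone, and 4.86 in mutant and 4.69 in control growth plate. The control interzone array was the low one, and the other 5 arrays formed a run in which each differed from the next within spot scatter. Crabp2, known to carry retinoic acid to its nuclear receptors, was low on the mutant interzone array. It had a level of 2.30 in mutant and 3.98 in control interzone, 3.20-fold lower, which are the lowest and the highest of its 6 values. In interdigital tissue the levels were 3.25 in the mutant and 3.59 in the control, and in growth plate 3.15 in the mutant and 3.17 in the control, both within spot scatter. With the deposited value table the growth plate difference of Crabp2 was -1.13 on the log2 scale.

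Rara, the most widely expressed of the receptors, followed the order interdigital tissue, interzone, growth plate in both genotypes. The levels were 1.07, 0.98 and 0.54 on the mutant arrays and 1.38, 0.24 and -0.63 on the control arrays. The step between mutant interdigital tissue and mutant interzone was within spot scatter, while the control growth plate array was 4.04-fold below control interdigital tissue. That control fold was under 2 with the deposited value table. The mutant was 1.24-fold lower than the control in interdigital tissue, within spot scatter, 1.67-fold higher in interzone and 2.26-fold higher in growth plate. With the deposited value table the growth plate difference was 0.060 on the log2 scale, against 1.17 here.

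Rarb, the receptor gene that retinoic acid itself induces, had the widest range among the 8 members detected throughout, 44.4-fold, and the same tissue order at both of its probes, interdigital tissue above interzone above growth plate in each genotype. The step between interdigital tissue and interzone was within spot scatter at the second probe in controls. It was also within spot scatter at the main probe in mutants, at 0.29 on the log2 scale. Its main probe was spotted 10 times on each array. The mean of the spots was 0.43 ± 0.095 in mutant and 0.12 ± 0.072 in control interdigital tissue (SD of 10 spots each). It was 0.13 ± 0.093 in mutant and -0.38 ± 0.084 in control interzone (SD of 10 spots each). It was -1.31 ± 0.081 in mutant growth plate (8 spots, after 2 outlier spots were left out) and -5.05 ± 0.23 in control growth plate (10 spots).

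The spots of the main probe did not overlap between mutant and control in any tissue, with higher values in each mutant. The folds were 1.23 in interdigital tissue, 1.43 in interzone and 13.3 in growth plate. The interdigital difference, 0.30 on the log2 scale, was under the limit called spot scatter above. Spots of 1 array share a capture and an amplification, so their separation says nothing about embryos. The share of other repeatedly spotted probes that separate in this way was not counted. The second probe, annotated with a sequence of the RAR-beta 4 isoform, had levels of -1.03 in mutant and -1.99 in control interdigital tissue, -1.92 in mutant and -2.04 in control interzone, and -2.83 in mutant and -3.41 in control growth plate. It was higher in the mutant in each tissue too, though within spot scatter in interzone. In growth plate it was 1.495-fold higher, so that the size of that difference depends on the probe. The scaling matters too: the main probe's growth plate difference was 3.73 on the log2 scale, 2.29 with normexp and 4.11 with the percentile taken over probes detected on all arrays. Both probes were lowest on the control growth plate array, which had the lowest detection of the series. Within the mutants, interdigital tissue was 3.34-fold above growth plate at the main probe and 3.47-fold at the second, and within the controls 36.0-fold and 2.67-fold.

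**Figure D3:**
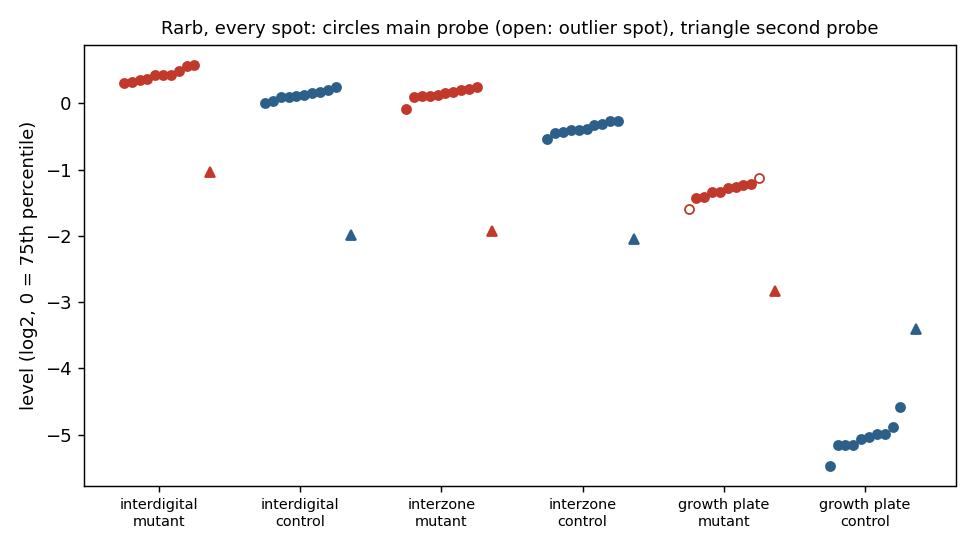
Every Rarb spot on each array, ordered by level within an array; the vertical axis is the log2 level with 0 at the 75th percentile, circles are the 10 spots of the main probe (open where marked as outliers), and triangles are the spot of the second probe. The main probe's spots lie between -5.47 and -4.58 on the control growth plate array and, outlier spots aside, at -1.43 or higher on the other 5 arrays.

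Rarg, the receptor gene known for its expression in mouse cartilage precursors and in skin, was highest in the control growth plate at its brighter probe. That probe had levels of 1.01 in mutant and 1.24 in control interdigital tissue, 2.28 in mutant and 1.98 in control interzone, and 0.90 in mutant and 3.12 in control growth plate. The mutant growth plate was thus 4.64-fold lower, while the other pairs differed within spot scatter. The other probe, at 1.26 in mutant and 1.36 in control growth plate, was 1.07-fold lower there, so the probes disagree about this difference. At the brighter probe it was -2.21 on the log2 scale, -1.59 with quantile normalization and -3.33 with the deposited value table. On the other probe the interzone was highest in both genotypes, at 2.00 each, though within spot scatter of interdigital tissue in the mutants. The cartilage marker median was 0.65 in mutant and 4.61 in control growth plate, and its part in the difference at the brighter probe was not tested.

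Counted together, the members that differed at least 2-fold between mutant and control made up 3 of 8 in interzone, 4 of 8 in growth plate and 1 of 10 in interdigital tissue. In interzone 1 was higher (Aldh1a2) and 2 were lower (Rdh10, Crabp2), where 40.5% of 16669 genes passed 2-fold, 17.8% higher and 22.7% lower. In growth plate 2 were higher (Rara, Rarb) and 2 lower (Rarg, Cyp26b1), where 54.8% of 16166 genes passed, 22.1% higher and 32.6% lower. In interdigital tissue 0 were higher and 1 was lower (Cyp26a1), where 26% of 17792 genes passed, 10.1% higher and 16% lower. The median difference of the members was 0.40, 0.076 and -0.32, against -0.11, -0.45 and -0.18 for all genes. Differences of 2-fold between these single arrays were thus common, and the counts of members show nothing particular to this pathway.

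**Figure D4:**
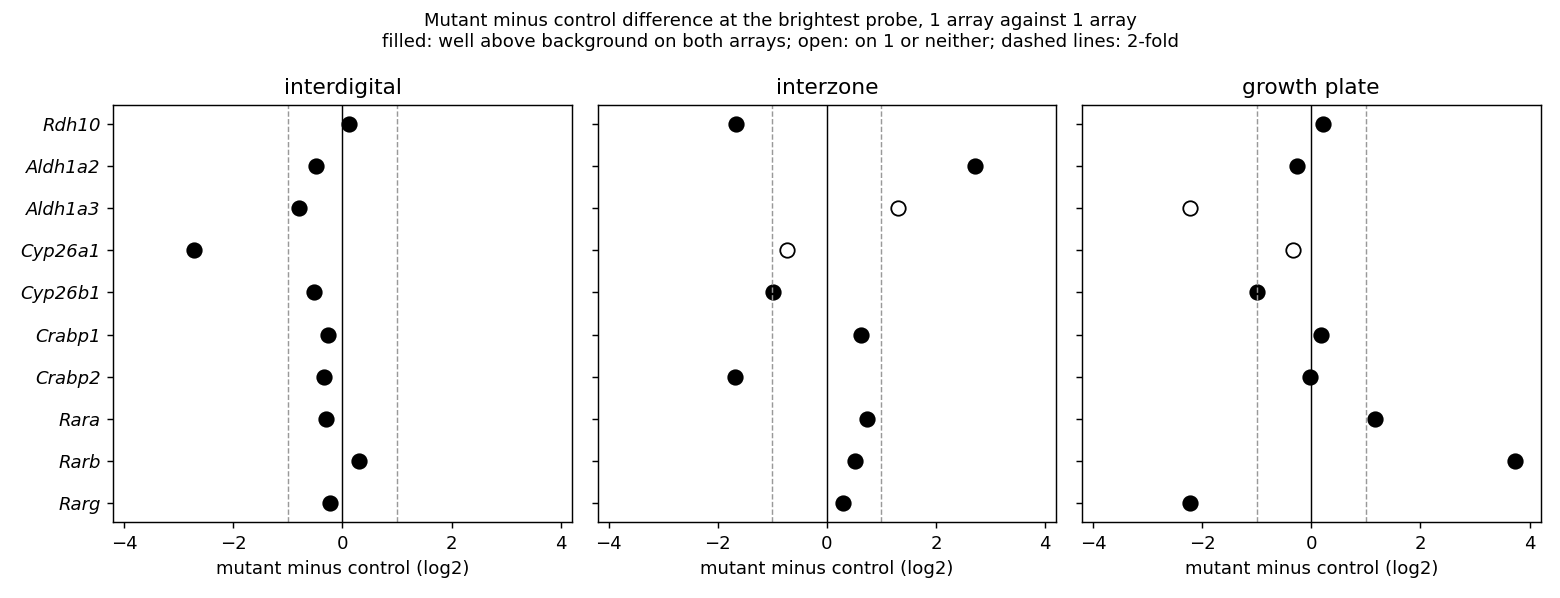
Mutant minus control difference of each member at its brightest probe (rows) in the 3 tissues (panels); the horizontal axis is log2, filled points were well above background on both arrays and open points on 1 or neither, and dashed lines mark 2-fold. The filled points past 2-fold are Cyp26a1 in interdigital tissue, Aldh1a2, Rdh10 and Crabp2 in interzone, and Rarb, Rara, Rarg and Cyp26b1 in growth plate.

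Between tissues, Rdh10, Aldh1a2 and Rarb were at least 2-fold higher at their brightest probes in interdigital tissue than in growth plate in both genotypes, beside the bounds for Cyp26a1. With the deposited value table the control differences of Rdh10 and Aldh1a2 fell under 2-fold. The median log2 difference of all genes in that control pair was -1.61 with that table, against -0.15 here. In mutants, 1 of 9 measured members was higher in interdigital tissue than in interzone and 2 were lower, where 36.2% of all genes passed, 18% higher and 18.2% lower. Against mutant growth plate 3 of 8 were higher and 0 lower, where 29.4% of genes passed, 16.2% higher and 13.2% lower. In controls, 4 of 9 were higher in interdigital tissue than in interzone and 0 lower, where 29.5% of genes passed, 14.9% higher and 14.6% lower. Against control growth plate 4 of 8 were higher and 1, Rarg, was lower, where 49.7% of genes passed, 24.9% higher and 24.8% lower. Interzone against growth plate gave 3 of 8 higher and 0 lower in mutants, where 39.5% of genes passed, 21.3% higher and 18.2% lower. In controls it gave 2 of 8 higher and 1 lower, where 48.8% passed, 24.9% higher and 23.9% lower. Rarb was the member higher in both genotypes.

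A fit of all 6 arrays with a term for tissue and a term for genotype put an error on these patterns. It takes as error the disagreement of the tissues about the genotype difference and of the genotypes about the tissue differences, since no group has a second array. With limma and Benjamini-Hochberg adjustment over 35097 probes, 0 probes (0%) had an adjusted p under 0.05 in any of the 4 comparisons, while 5.87% of probes had an unadjusted p under 0.05 for mutant minus control, 6.35% for interdigital minus growth plate, 3.66% for interdigital minus interzone and 6.76% for interzone minus growth plate. No member therefore passed.

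For interdigital minus growth plate, no estimate is given for Cyp26a1, whose probe was not well above background on either growth plate array, so that the bounds above are its measure. Rarb differed by 3.46 ± 1.14 on the log2 scale at its main probe (SE, adjusted p = 0.763 in limma), with a 95% interval of 0.31 to 6.60, and by 1.61 ± 0.64 at its second (adjusted p = 0.810). Without the mutant growth plate array, which lacked the high cartilage markers of the control, the Rarb main probe differed by 5.12, and without the control growth plate array by 1.79. Each of these fits rests on 1 growth plate array, so that its error holds no variation of growth plate and no p is given.

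For mutant minus control, averaged over the tissues, Rarb differed by 1.52 ± 0.93 (SE, adjusted p = 0.754 in limma). It was higher in 3 of 3 tissues, though within spot scatter in interdigital tissue. Cyp26b1 differed by -0.84 ± 0.51 (adjusted p = 0.754 in limma) and was lower in 3 of 3, with a 95% interval of -2.25 to 0.57. Aldh1a2 differed by 0.65 ± 0.88 (adjusted p = 0.844), higher in 1 of 3 tissues. Intervals of this width allow several-fold differences in either direction for most members.

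**Figure D5:**
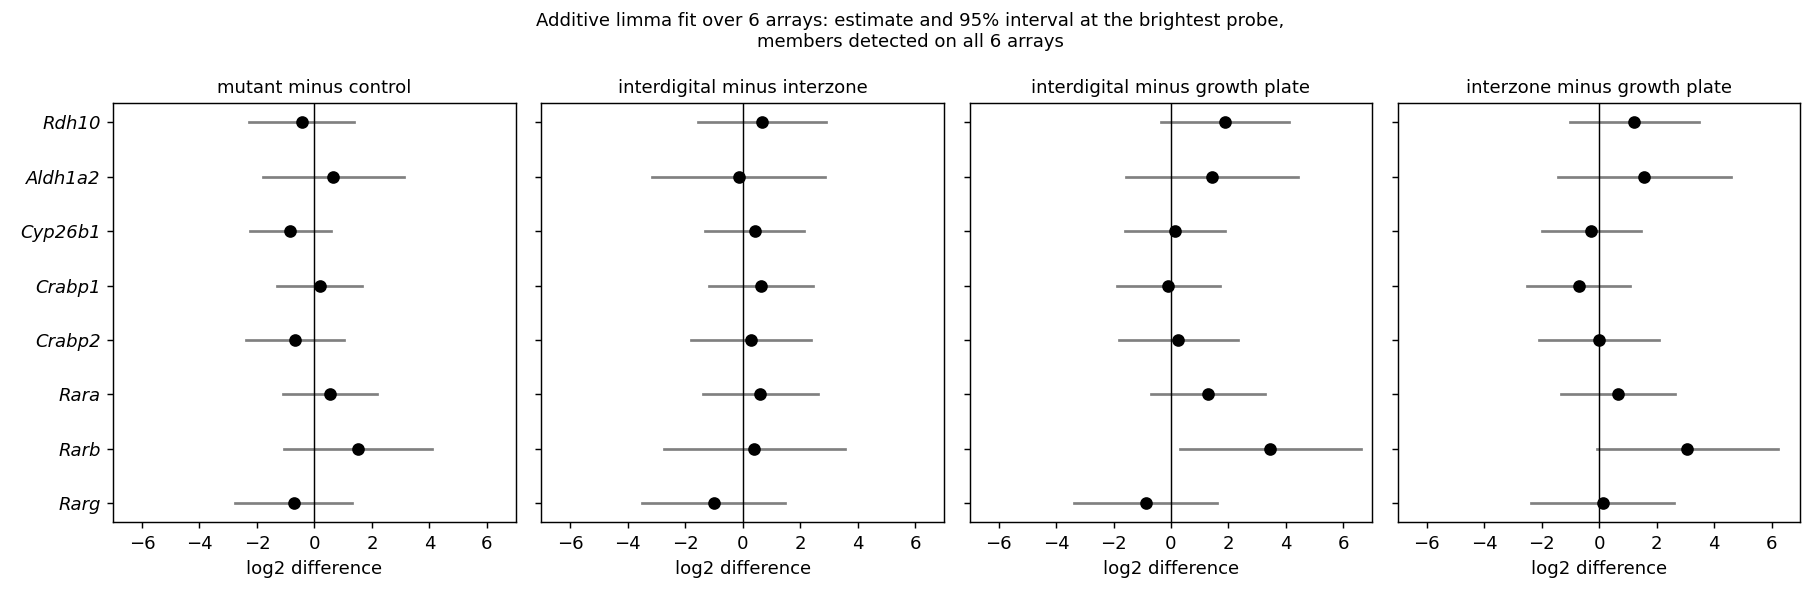
Estimates (points) and 95% intervals (lines) of the additive limma fit over the 6 arrays for the 8 members whose brightest probe was well above background on all 6 arrays (rows) in 4 comparisons (panels); the horizontal axis is the log2 difference. The Rarb interval for interdigital minus growth plate runs from 0.31 to 6.60, and none of the 8 had an adjusted p under 0.05.

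Other genes of the pathway moved in both directions. Of 23 other retinoid metabolism genes on the array, 3 were at least 2-fold higher and 4 lower among 21 measured in interzone, 6 higher and 0 lower among 20 in growth plate, and 4 higher and 2 lower among 23 in interdigital tissue, with median differences of -0.15, -0.32 and -0.064. Among all genes, 17.8% passed 2-fold upward and 22.7% downward in interzone, 22.1% and 32.6% in growth plate, and 10.1% and 16% in interdigital tissue. Of 13 further receptors and cofactors, 1 was higher and 1 lower among 12, 2 higher and 5 lower among 11, and 1 higher and 3 lower among 13, in the same order of tissues. Of 22 retinoic acid response genes, 3 were higher and 5 lower among 18, 6 higher and 7 lower among 18, and 5 higher and 4 lower among 19.

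The alcohol dehydrogenase gene Adh1, whose enzyme can oxidise retinol, was higher on each mutant array. Its levels were 1.78 in mutant and -2.56 in control interdigital tissue, 2.87 in mutant and -6.91 in control interzone, and 2.61 in mutant and -1.19 in control growth plate. Fabp5, which encodes a fatty acid binding protein that can carry retinoic acid to another receptor, was higher by 9.35-fold, then 8.11-fold, then 9.80-fold, with the tissues in that order. Meis2, a homeobox gene induced by retinoic acid in the proximal limb, was higher by 32.8-fold, 5.26-fold and 241-fold.

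Epidermis markers were higher in the same mutants. The epidermis list has 14 genes on the array: 10 of 12 measured passed 2-fold upward in interdigital tissue, 13 of 14 in interzone and 7 of 12 in growth plate, with 0 lower in each pair. The log2 of their summed level was 7.57, 7.83 and 7.86 on the mutant arrays and 3.62, 4.71 and 6.77 on the control arrays. The keratin gene Krt10 had levels of 5.06, 5.49 and 5.48 on the mutant arrays and -1.55, -3.04 and 3.90 on the control arrays, well above background on each. The part of the epidermis markers in Adh1, Fabp5 and Meis2 was not tested.

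The remaining genes named by the rule differed from tissue to tissue. In the mutant interzone, Ets1 was 10.2-fold higher, while Foxc1 was 18.1-fold, the retinal reductase gene Dhrs3 4.81-fold and the retinol carrier gene Rbp4 3.55-fold lower, and Cyp1b1 was at least 54.6-fold lower. In the mutant growth plate, Meis1 was 25.9-fold and Adh7 24.5-fold higher and the bounds were 155-fold for Nr2f2 and 110-fold for Rdh13, both higher, while the transglutaminase gene Tgm2 was 79.3-fold, Hoxb5 38.7-fold and the retinoid X receptor gene Rxrb 11.2-fold lower. In the mutant interdigital tissue, Cdx1 was 4.22-fold and Ttr, which encodes the plasma carrier transthyretin, 3.79-fold lower.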

How the data were processed

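The authors' deposited scanner files hold the intensity of each spot of 6 one-colour arrays, background-subtracted and detrended by Agilent Feature Extraction 9.5.1.1, per the file headers. The deposited value table holds a linear ratio, each processed signal over its array's median, as found against the scanner values. Groups came from the titles, since 5 descriptions name irradiated human blood.

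Outlier spots and control spots were dropped and the remaining spots averaged by probe, giving 41174 probes. Levels are log2 signals with each array's 75th percentile set to 0, and 0 spots were saturated. The probe of highest mean level stands for its gene, and all member probes are reported. Accessions, symbols and older symbols named 22951, 6659 and 3109 probes through RefSeq (GRCm38.p6), and 8455 had no name. A difference was counted at 2-fold if the probe was well above background on both arrays. The additive fit used limma 3.58.1 in R 4.3.3 on probes well above background on at least 3 arrays, with 2 residual degrees of freedom. It was tested on simulated data with additive effects only, which checks the code and not what the fit can detect in these arrays. Arrays numbering 1 a group limit the precision.

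The members and lists were chosen with earlier results of these data known. Named beyond the members were, from the 3 retinoid lists, the 3 largest differences in each direction per mutant and control pair, and 1-sided detections at or above the array's median of detected probes. Of the genes this names, 1 is not reported here. Probe positions are not printed, since the files name no genome build for them.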

Additional observations from a re-analysis of the deposited data

Results flagged for a closer look

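For 4 members the mutant minus control difference had opposite signs in different tissues, at least 2-fold apart, at a probe well above background on the arrays concerned. The difference between tissues was not tested, since each rests on 1 array per group. The gap between the highest and the lowest tissue was 3.21 on the log2 scale for Aldh1a2 (interzone against interdigital tissue), 2.51 for Rarg (interzone against growth plate), 1.89 for Rdh10 (growth plate against interzone) and 1.48 for Rara (growth plate against interdigital tissue). The Rarg gap was not seen at its other probe, which differed by 0.0029 in interzone and -0.10 in growth plate. The Rdh10 gap rests on a growth plate difference of 0.22 whose sign turned with the scaling, to -0.53 with quantile normalization. The smaller of the opposed differences was within spot scatter for Rara (-0.31 in interdigital tissue), Rarg (0.30 in interzone) and Rdh10 (0.22 in growth plate). With the deposited value table the Rara growth plate difference was 0.060.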

How the results depend on the processing

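Of the 29 differences of a member between arrays that reached 2-fold, 145 of 145 values under 5 alternatives (percentile over probes detected on all arrays, normexp, quantile normalization, the deposited ratio table, and the mean over a gene's probes) kept the direction and 127 kept 2-fold. For the 6 members with 1 probe the mean over probes is the main value itself, so those counted values could not change. With a 4-fold limit the counts of members became 1 in interzone, 2 in growth plate and 1 in interdigital tissue (all genes 18.2%, 26.2% and 7.19%), 0, 0 and 1 in the mutant tissue pairs (interdigital against interzone, interdigital against growth plate, interzone against growth plate; all genes 13.5%, 10.3% and 16%), and 1, 2 and 2 in the same control pairs (all genes 10.2%, 23.9% and 24.4%). With the mean over probes 2 members differed in the interdigital genotype pair, 5 between mutant interdigital tissue and interzone with quantile normalization, and 5 between control interzone and growth plate with the deposited ratios; the cause was not tested. The limma count was 0 under every scaling, filter, slide block and left-out array, with 775 to 6997 probes at an unadjusted p under 0.05, and 0 of 552 member values passed. Among all genes past 2-fold, the share higher in the mutant was 43.9% in interzone (42.8% to 72.1% over the scalings), 40.4% in growth plate (16.8% to 54.4%) and 38.6% in interdigital tissue (37.1% to 51.2%); the median of all genes in growth plate was -0.45, and -1.56 with the deposited table. No paired analysis was possible because each group has 1 array and no replicate numbers are shared, apart from the additive fit, which sets mutant against control within each tissue. Low signal limits Aldh1a3 and Cyp26a1.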

Other observations

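Among retinoic acid response genes, tissue differences within a genotype went both ways. Interdigital tissue had 7 genes at least 2-fold higher and 3 lower than interzone among 19 measured in mutants, where 18% of all genes passed upward and 18.2% downward, and 6 higher and 2 lower among 18 in controls, where 14.9% and 14.6% passed. Against growth plate, it had 3 higher and 1 lower among 18 in mutants (all genes 16.2% and 13.2%), and 6 higher and 6 lower among 19 in controls (all genes 24.9% and 24.8%).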
